A study of Mus musculus with 24 samples.

Results

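Lifr, Il6st, Jak1, Jak2, Stat3, Socs3, Socs2, Bcl3, Pim1 and Pim3 encode the receptor chains, kinases, transcription factor, feedback inhibitors and target proteins of LIF and Stat3 signalling in mouse embryonic stem cells (mESCs). These 10 genes were taken by symbol from the 22609 gene symbols of the count tables. They were chosen with earlier results of these data known. All 10 were among the 16280 genes that passed a filter on low counts and were tested. Poly-A RNA was sequenced in 24 libraries, 3 in each of 8 groups, all from E14TG2a, an mESC line of the 129/Ola strain derived from a blastocyst and kept without feeder cells. The hairpins were stably transfected and target Med12 and Cdk8, which encode subunits of the Mediator kinase module, or Rnf2, which encodes the Polycomb protein Ring1b. The RA groups carried shMed12, shCdk8 or shNMC, a hairpin with no mammalian target, and spent 24 h in 1e-06 M all-trans retinoic acid (RA) in medium from which LIF had been taken out. The other 5 groups remained in serum and LIF without RA: cells with shMed12, shCdk8, shRing1b or shNMC, and untransfected cells. RA and the removal of LIF always came together, since no group lost LIF alone, and their effects cannot be told apart. Hereafter "RA" stands for both. The labels give neither the number of hairpin sequences per target nor whether a line is 1 clone, nor whether the 3 replicates were grown apart. The p-values therefore describe spread among these libraries, which may be technical. The comparisons ask how each hairpin and the RA medium changed the RNA levels of the pathway. In bulk RNA, fewer cells of a type and less RNA per cell cannot be told apart.

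LIF binds the receptor chain encoded by Lifr, which then pairs with gp130, the product of Il6st. Kinases of the Jak family sit on the receptor chains and phosphorylate Stat3, which enters the nucleus and switches on genes, among them Socs3, whose product blocks the receptor again. In mESCs grown in serum this pathway is known to sustain self-renewal.

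In the GENCODE vM21 annotation (GRCm38), Lifr at chr15:7090614-7197489, Il6st at chr13:112464070-112510086, Jak2 at chr19:29251828-29313080, Pim1 at chr17:29490753-29496112 and Pim3 at chr15:88862186-88865726 lie on the plus strand. On the minus strand are Jak1 at chr4:101152367-101265282, Stat3 at chr11:100885098-100939540, Socs3 at chr11:117966079-117970047, Socs2 at chr10:95385362-95417180 and Bcl3 at chr7:19808462-19822770. Counts were summed over each gene in the deposited tables, so no value refers to a single exon.

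Promoter windows are shown for Socs3, Bcl3 and Pim3, 3 of the targets with the largest falls in RA medium. They come from RefSeq (GRCm38.p6) and run from 250 bases before to 50 bases after the annotated start, and 9 of the 10 genes had such a window. Socs3 is on the minus strand at chr11:117969317-117969616, Bcl3 on the minus strand at chr7:19822706-19823005 and Pim3 on the plus strand at chr15:88861944-88862243. Capitals mark a match to TTCNNNGAA, the palindrome that STAT proteins are known to bind, searched on both strands.
Socs3: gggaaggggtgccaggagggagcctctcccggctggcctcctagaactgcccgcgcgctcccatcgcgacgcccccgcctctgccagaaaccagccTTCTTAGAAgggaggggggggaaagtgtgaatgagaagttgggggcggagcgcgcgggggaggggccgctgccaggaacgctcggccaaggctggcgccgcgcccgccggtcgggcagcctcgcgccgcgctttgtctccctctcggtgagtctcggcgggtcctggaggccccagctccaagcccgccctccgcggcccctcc
Bcl3: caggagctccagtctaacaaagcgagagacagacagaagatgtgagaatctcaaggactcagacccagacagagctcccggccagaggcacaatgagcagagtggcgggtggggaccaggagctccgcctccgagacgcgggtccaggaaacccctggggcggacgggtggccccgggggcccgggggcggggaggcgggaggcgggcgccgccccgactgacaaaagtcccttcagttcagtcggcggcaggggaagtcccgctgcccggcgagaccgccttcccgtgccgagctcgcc
Pim3: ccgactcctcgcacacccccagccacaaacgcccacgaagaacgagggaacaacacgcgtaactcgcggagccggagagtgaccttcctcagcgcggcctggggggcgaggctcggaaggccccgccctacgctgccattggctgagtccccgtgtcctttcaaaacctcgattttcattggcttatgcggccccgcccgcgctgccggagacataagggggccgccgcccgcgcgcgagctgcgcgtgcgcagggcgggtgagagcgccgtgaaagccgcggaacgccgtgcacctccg
The motif was found in the window of 1 of the 9 genes, Socs3, as TTCTTAGAA at -154 to -146 from the RefSeq start. The Socs3 window lies wholly within the GENCODE span given above, so this start is not the outer end of that span. Of all 27025 genes with a promoter window, 9.55% held it in at least 1 window.

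The 24 libraries held 27.4 to 57.3 M gene counts each (M, mega-counts). The 10 genes had 409 to 13008 counts in each library, so none of their levels rests on a few reads. Multiple alignment took 20.0% to 21.7% of the entries in the 6 shRing1b and untransfected libraries, against 44.1% to 49.1% in the other 18, so these are named as separate technical sets. All 24 libraries were fitted together, with no term for the set. In every shMed12 and shCdk8 library the targeted gene lay below all shNMC libraries of the same state. Rnf2 stood at 52.4, 64.2 and 207 CPM (counts scaled to a common library size by TMM, per mega-count) in replicates 1, 2 and 3 labelled shRing1b. It ranged from 240.0 to 277 CPM with shNMC, so replicate 3 shows little loss of the gene that its label names as the target. Replicate 2 stands apart in another way: its 8 extraembryonic endoderm markers summed to 3486 CPM, where replicates 1 and 3 had 927 and 262 CPM and shNMC libraries 335 to 403 CPM. The 6 mESC markers, which include Pou5f1, Nanog and Esrrb, summed to 3365 to 3577 CPM in shNMC mESCs with none at 0.

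In mESCs with shNMC the pathway genes spanned a wide range of levels. Per kilobase of merged exons, Pim3 and Pim1, which encode serine/threonine kinases that promote survival, stood at 92.5 ± 4.9 and 45.1 ± 2.5 CPM per kb (SD, n = 3). Socs3 stood at 44.7 ± 9.8 and Socs2, a second inhibitor of cytokine receptors, at 30.1 ± 4.8 CPM per kb. The receptor chains were close to each other, with 18.5 ± 0.82 CPM per kb for Lifr and 16.6 ± 0.38 CPM per kb for Il6st. Among the kinases, Jak1 stood at 24.9 ± 2.4 CPM per kb and Jak2 at 3.46 ± 0.58 CPM per kb, the lowest level of the 10 genes in this group. Exon lengths are those of GENCODE vM21 (GRCm38), while the counts were made on mm9, so levels per kilobase are approximate. Of the 10 genes, 4 overlap a gene on the other strand in that annotation: Jak1 and Raver2, Stat3 and Stat5a, Bcl3 and Gm16175, and Pim1 and Gm26885. The libraries were strand-specific, but the strand setting of the counting is not given in the sources used here, so reads of such pairs may not have been told apart.

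**Figure D1:**
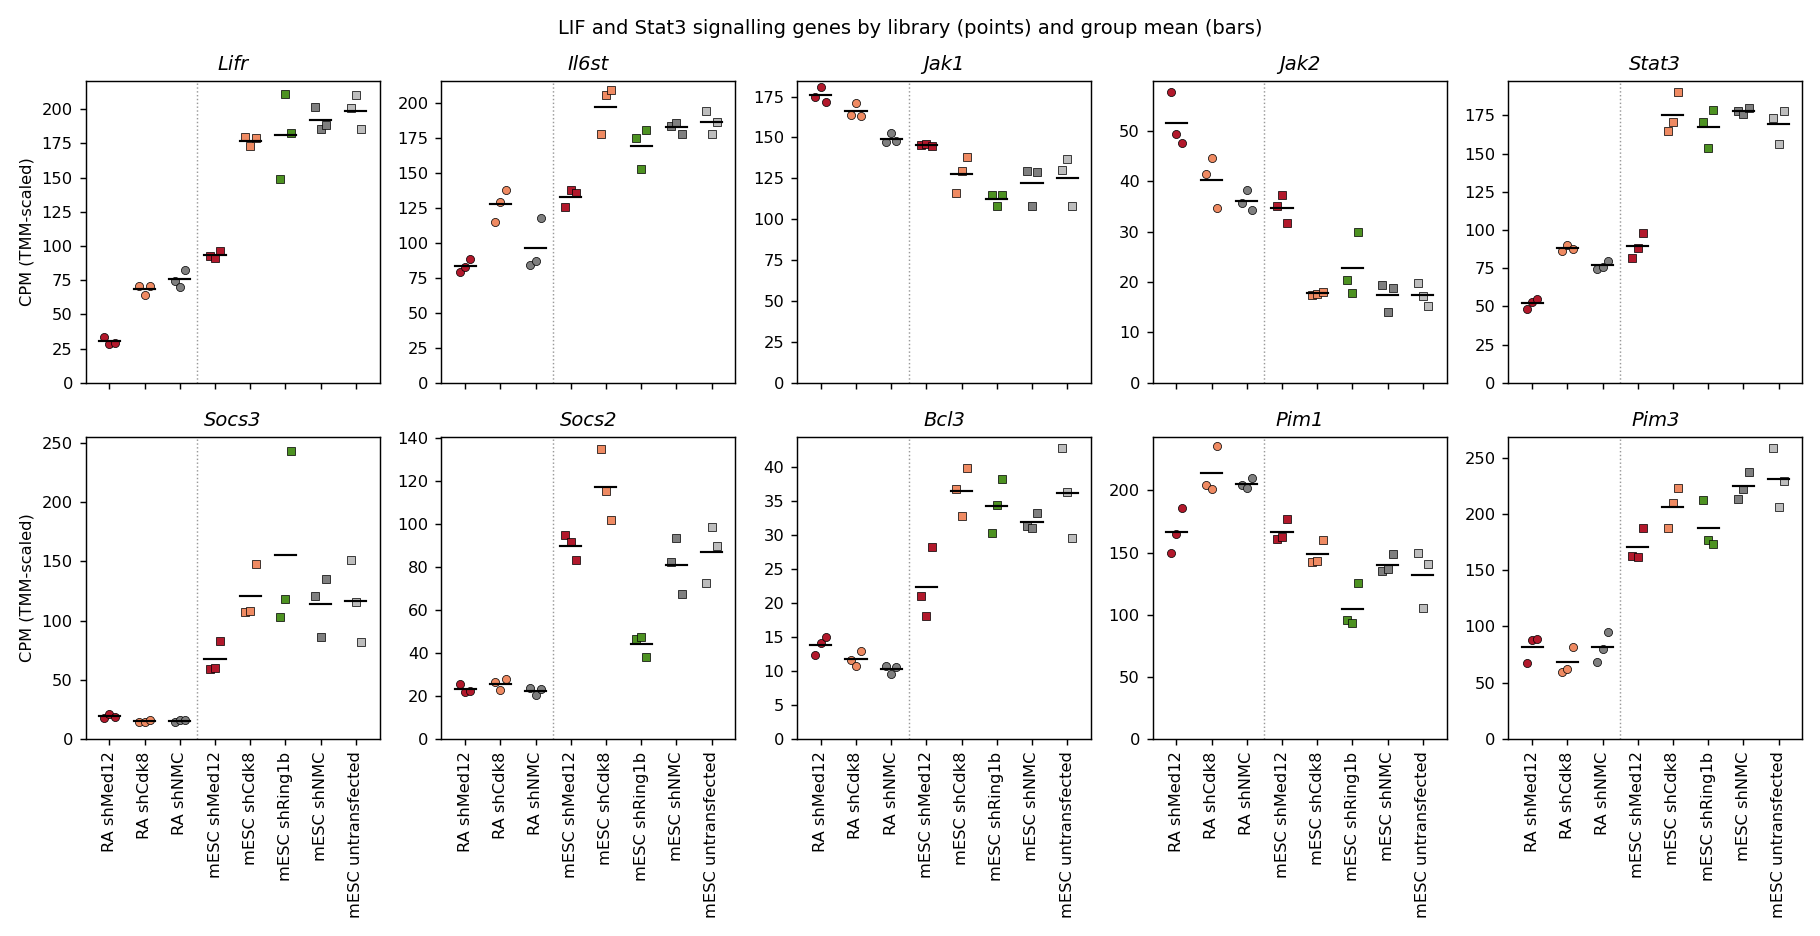
Level of each of the 10 genes in CPM on linear axes that start at 0, by group, with 1 point per library (circles after 24 h RA, squares mESCs) and a bar at the group mean (n = 3). Lifr, Il6st, Stat3, Socs3, Socs2, Bcl3 and Pim3 are lower and Jak1 and Jak2 higher in all RA groups than in mESCs of the same hairpin; Lifr and Stat3 of shMed12 cells lie below those of shNMC cells in both states.

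In RA medium without LIF, all 10 genes changed in shNMC cells: both receptor genes, Stat3, both Socs genes, Bcl3 and Pim3 fell, and Jak1, Jak2 and Pim1 rose. The call was an edgeR quasi-likelihood test with a Benjamini-Hochberg adjusted p under 0.05. Of all genes tested, 51.4% were called in this comparison, 27.3% higher and 24.1% lower, so a call alone sets no gene apart here. The median log2 change was -1.28 over the 10 genes and 0.02 over all genes tested.

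The inhibitor genes fell furthest. Socs3 had 14.2, 15.6 and 15.5 CPM in RA shNMC cells, against 121, 86.2 and 135 CPM in shNMC mESCs, a log2 change of -2.92 (SE 0.27, edgeR adjusted p = 1.83e-08). The RA libraries lay close together and far below the mESC libraries, which were themselves spread out. Socs2 had 23.7, 20.2 and 23.3 CPM in RA shNMC cells, against 82.5, 93.4 and 67.4 CPM in shNMC mESCs (log2 -1.86, SE 0.14, edgeR adjusted p = 8.22e-10), again with no overlap.

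Bcl3, which encodes a nuclear cofactor of NF-kappaB and a known Stat3 target in mESCs, had 10.7, 9.46 and 10.6 CPM in RA shNMC cells, against 31.3, 31.0 and 33.2 CPM in shNMC mESCs (log2 -1.64, SE 0.15, edgeR adjusted p = 1.79e-08). Pim3 had 68.6, 80.1 and 95.0 CPM in RA shNMC cells, against 214, 222 and 237 CPM in shNMC mESCs (log2 -1.47, SE 0.14, edgeR adjusted p = 2.39e-08). Its relative Pim1 went the other way, with 204, 202 and 210.1 CPM in RA shNMC cells, against 135, 137 and 149 CPM in shNMC mESCs (log2 0.55, SE 0.12, edgeR adjusted p = 0.000593). The groups overlapped for none of these 3 genes. The order of the Pim genes in level per kilobase turned round: after RA, Pim1 stood at 66.1 ± 1.3 and Pim3 at 33.5 ± 5.5 CPM per kb (SD, n = 3), while in mESCs Pim3 was the higher.

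Of the receptor chains, Lifr had 74.3, 69.9 and 82.7 CPM in RA shNMC cells, against 202, 186 and 188 CPM in shNMC mESCs (log2 -1.34, SE 0.10, edgeR adjusted p = 9.51e-10). Il6st had 84.1, 87.0 and 118 CPM in RA shNMC cells, against 184, 186 and 178 CPM in shNMC mESCs (log2 -0.92, SE 0.11, edgeR adjusted p = 3.94e-07). RA library 3 was the highest of its group for both chains, and neither gene's groups overlapped. Stat3 had 74.7, 75.6 and 80.0 CPM in RA shNMC cells, against 178, 176 and 179.7 CPM in shNMC mESCs (log2 -1.21, SE 0.08, edgeR adjusted p = 2.19e-10). Both groups were tight and far from overlapping.

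The kinase genes moved against the receptor genes. Jak2 had 35.7, 38.2 and 34.3 CPM in RA shNMC cells, against 19.4, 14.1 and 18.7 CPM in shNMC mESCs (log2 1.05, SE 0.16, edgeR adjusted p = 9.82e-06). Jak1 had 147, 153 and 148 CPM in RA shNMC cells, against 129, 108 and 129 CPM in shNMC mESCs (log2 0.29, SE 0.08, edgeR adjusted p = 0.00656). This was the smallest change of the 10 genes, and without shNMC mESC library 2, the lowest of its group, it was 0.22 (edgeR adjusted p = 0.0515). Markers moved with RA as well: in shNMC cells 6 of 6 mESC markers fell, to sums of 1292 to 1596 CPM after RA against 3365 to 3577 CPM in mESCs, and 7 of 10 trophectoderm markers rose, with sums of 115 to 125 CPM after RA against 82.6 to 102 CPM in mESCs. Of the 10 fibroblast and smooth-muscle markers 3 rose and 1 fell, with sums of 56.6 to 58.0 CPM after RA against 26.9 to 27.5 CPM in mESCs, and of the 8 extraembryonic endoderm markers 1 fell, with sums of 277 to 296 CPM after RA against 335 to 403 CPM in mESCs. Their part in the RA results was not tested.

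**Figure D2:**
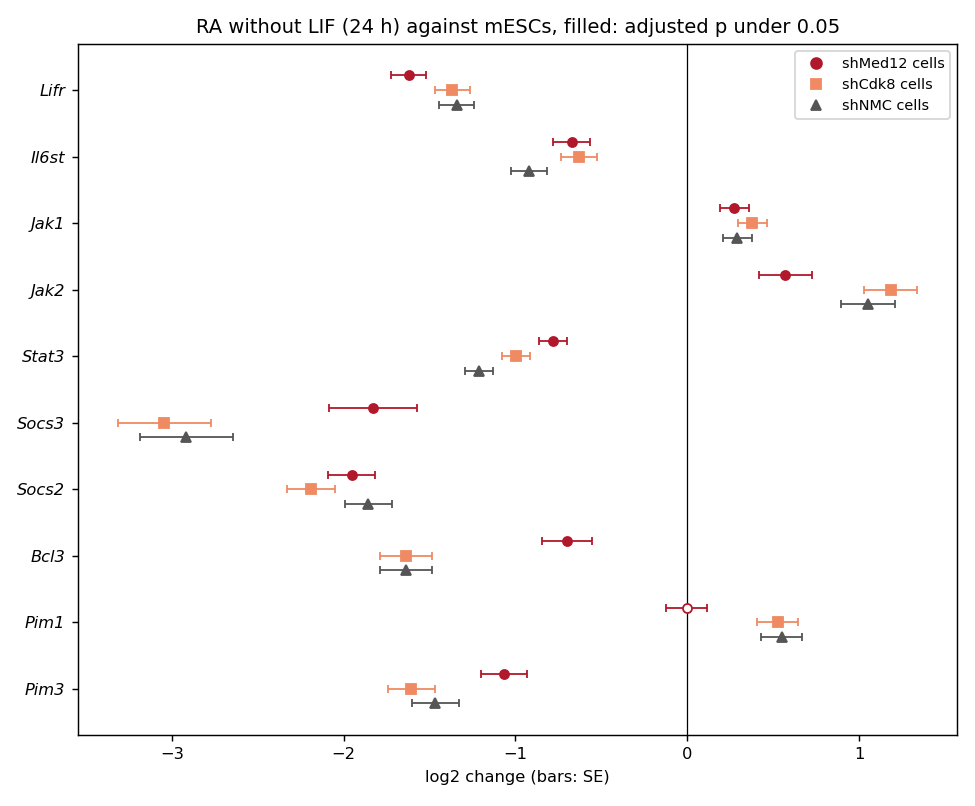
Log2 change of each gene in 24 h RA medium without LIF against mESCs, in shMed12, shCdk8 and shNMC cells (n = 3 libraries a group), with bars of 1 SE and filled symbols for an adjusted p under 0.05. The 7 genes that fell and the 3 that rose in shNMC cells moved the same way in shCdk8 cells; in shMed12 cells Pim1 alone was not called.

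In shCdk8 cells, RA medium again changed all 10 genes, 7 lower and 3 higher (51.7% of all genes tested were called, 26.7% higher and 25.1% lower), and the median log2 change was -1.18 over the 10 genes and 0.01 over all genes. The log2 changes were -3.04 for Socs3 (SE 0.27), -2.19 for Socs2 (SE 0.14), -1.64 for Bcl3 (SE 0.15), -1.61 for Pim3 (SE 0.14), -1.37 for Lifr (SE 0.10), -1.0 for Stat3 (SE 0.08) and -0.63 for Il6st (SE 0.11). They were 1.18 for Jak2 (SE 0.16), 0.53 for Pim1 (SE 0.12) and 0.38 for Jak1 (SE 0.08). In shMed12 cells RA changed 9 of the 10 genes, 7 lower and 2 higher (37.1% of all genes tested were called, 19.6% higher and 17.5% lower), with medians of -0.74 over the 10 genes and 0.03 over all genes. The inhibitor and receptor genes fell there too, with log2 changes of -1.95 for Socs2 (SE 0.14), -1.83 for Socs3 (SE 0.26), -1.62 for Lifr (SE 0.10) and -0.67 for Il6st (SE 0.11). Pim3 fell by 1.07 (SE 0.14), Stat3 by 0.78 (SE 0.08) and Bcl3 by 0.70 (SE 0.15) on the log2 scale, while Jak2 (0.57, SE 0.15) and Jak1 (0.27, SE 0.08) rose. Pim1 had 149, 165 and 186 CPM in RA shMed12 cells, against 161, 162 and 177 CPM in shMed12 mESCs, groups that overlapped (95% interval of the log2 change -0.25 to 0.25). The Jak1 call in shMed12 cells was lost without RA library 1 or 2 or mESC library 2 or 3 (adjusted p up to 0.0581).

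In mESCs, shMed12 changed 8 of the 10 genes against shNMC (40.5% of all genes tested were called, 20.6% higher and 19.9% lower): Lifr, Il6st, Stat3, Socs3, Bcl3 and Pim3 were lower and Jak2 and Jak1 higher. The median log2 change was -0.43 over the 10 genes and -0.01 over all genes tested. Lifr had 92.6, 90.8 and 96.4 CPM with shMed12, against 202, 186 and 188 CPM with shNMC (log2 -1.04, SE 0.10, edgeR adjusted p = 3.18e-08). Stat3 had 81.7, 88.4 and 98.3 CPM with shMed12, against 178, 176 and 179.7 CPM with shNMC (log2 -0.99, SE 0.08, edgeR adjusted p = 3.24e-09). Neither gene's groups came near to overlapping. Il6st had 126, 138 and 136 CPM with shMed12, against 184, 186 and 178 CPM with shNMC (log2 -0.46, SE 0.11, edgeR adjusted p = 0.00147), a smaller fall with no overlap.

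Jak2 had 35.1, 37.2 and 31.7 CPM with shMed12, against 19.4, 14.1 and 18.7 CPM with shNMC in mESCs (log2 1.0, SE 0.16, edgeR adjusted p = 2.59e-05). Jak1 had 145, 146 and 145 CPM with shMed12, against 129, 108 and 129 CPM with shNMC (log2 0.25, SE 0.08, edgeR adjusted p = 0.0207). Both kinase genes were higher in every shMed12 library. The Jak1 call was lost without shMed12 library 1 (edgeR adjusted p = 0.0521) or shNMC library 2 (0.139).

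Among the 10 genes, the targets Socs3, Bcl3 and Pim3 had smaller estimated falls than Lifr and Stat3. Differences between genes were not tested. Socs3 had 58.7, 59.7 and 82.8 CPM with shMed12, against 121, 86.2 and 135 CPM with shNMC (log2 -0.76, SE 0.25, edgeR adjusted p = 0.0176). Bcl3 had 21.0, 18 and 28.2 CPM with shMed12, against 31.3, 31.0 and 33.2 CPM with shNMC (log2 -0.51, SE 0.15, edgeR adjusted p = 0.00822). In both genes the highest shMed12 library, replicate 3, came within reach of the lowest shNMC library without passing it. Pim3 had 162, 162 and 187 CPM with shMed12, against 214, 222 and 237 CPM with shNMC (log2 -0.40, SE 0.13, edgeR adjusted p = 0.0229). Leaving out 1 library ended the call of Socs3 in 4 of 6 fits (shMed12 library 1 or 2, shNMC library 1 or 3, adjusted p up to 0.102), of Pim3 in 3 (shMed12 library 1 or 2, shNMC library 3, up to 0.0973) and of Bcl3 in 1 (shMed12 library 2, 0.0879). Without shMed12 library 1 or 2, 5 of the 10 genes were called. Socs2 and Pim1 were not called, with 95% intervals of the log2 change of -0.13 to 0.43 and -0.00 to 0.50, though Pim1 was called higher when only the groups compared (0.26, edgeR adjusted p = 0.00873) or only the 18 shMed12, shCdk8 and shNMC libraries (0.23, edgeR adjusted p = 0.0194) were fitted.

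After RA, shMed12 changed 6 of the 10 genes against shNMC (41.9% of all genes tested were called, 21.3% higher and 20.6% lower), and the median log2 change was 0.03 over the 10 genes and -0.00 over all genes. Lifr had 33.6, 28.5 and 28.9 CPM with shMed12, against 74.3, 69.9 and 82.7 CPM with shNMC (log2 -1.32, SE 0.10, edgeR adjusted p = 1.63e-09). Stat3 had 48.3, 53.1 and 54.7 CPM with shMed12, against 74.7, 75.6 and 80.0 CPM with shNMC (log2 -0.56, SE 0.08, edgeR adjusted p = 1.03e-05). These RA shMed12 libraries held the lowest Lifr and Stat3 levels of all 24 libraries. Jak2 had 57.7, 49.3 and 47.5 CPM with shMed12, against 35.7, 38.2 and 34.3 CPM with shNMC (log2 0.51, SE 0.15, edgeR adjusted p = 0.0102), and no library of any other group was as high.

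Bcl3 was higher with shMed12 after RA, with 12.4, 14.1 and 14.9 CPM against 10.7, 9.46 and 10.6 CPM with shNMC (log2 0.43, SE 0.15, edgeR adjusted p = 0.0234), the opposite of its direction in mESCs. Pim1 was lower, with 149, 165 and 186 CPM with shMed12 against 204, 202 and 210.1 CPM with shNMC (log2 -0.30, SE 0.12, edgeR adjusted p = 0.0446). Jak1 was higher, with 175, 181 and 172 CPM with shMed12 against 147, 153 and 148 CPM with shNMC (log2 0.24, SE 0.08, edgeR adjusted p = 0.0283). The groups overlapped for none of the 3 genes, but each call rests on few libraries. With no filter on low counts the Jak1 call was lost (0.22, edgeR adjusted p = 0.0639). Without 1 library it was lost for Jak1 and Pim1 in 5 of 6 fits each, all but the one without RA shMed12 library 3 (edgeR adjusted p up to 0.129 and 0.14). It was lost for Bcl3 without RA shMed12 library 2 or 3 or RA shNMC library 2 or 3 (up to 0.115) and for Jak2 without RA shMed12 library 1 or RA shNMC library 3 (up to 0.0835). The number of the 10 genes called fell to 3 without RA shMed12 library 1 or 2 or RA shNMC library 2, and to 2 without RA shNMC library 3. Socs3, Socs2, Pim3 and Il6st were not called, with log2 changes of 0.32, 0.05, 0.00 and -0.21, though Il6st was called without RA shNMC library 1 (-0.30, edgeR adjusted p = 0.0433) and Socs3 when only the groups compared were fitted (0.32, edgeR adjusted p = 0.0172).

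Markers of other cell types moved with shMed12. In mESCs 9 of 10 trophectoderm markers were higher and their summed level was 629 to 783 CPM with shMed12, against 82.6 to 102 CPM with shNMC. Of 10 fibroblast and smooth-muscle markers 6 were higher, 2 lower and 1 not called, with summed levels of 348 to 393 CPM with shMed12, most of it Tagln (251 to 303 CPM), against 26.9 to 27.5 CPM with shNMC. The remaining one, Lum, was at 0 in all shNMC libraries and too low to test. The 6 mESC markers, of which 5 were lower and Dppa3 higher, summed to 1754 to 2001 CPM with shMed12, against 3365 to 3577 CPM with shNMC. Of the 8 endoderm markers 3 were lower, with sums of 219 to 250 CPM with shMed12 against 335 to 403 CPM with shNMC. After RA the trophectoderm sums were 733 to 940.3 CPM with shMed12 and 115 to 125 CPM with shNMC, the fibroblast and smooth-muscle sums 351 to 396 CPM with shMed12 and 56.6 to 58.0 CPM with shNMC, the mESC marker sums 542 to 643 CPM with shMed12 and 1292 to 1596 CPM with shNMC, and the endoderm sums 246 to 267 CPM with shMed12 and 277 to 296 CPM with shNMC. Of the trophectoderm markers 8 were called higher and 1 lower after RA, and of the fibroblast and smooth-muscle markers 6 higher and 1 lower. Of the mESC markers 1 was called higher and 5 lower after RA, and of the endoderm markers 3 lower. The part of these markers in the pathway results was not tested.

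**Figure D3:**
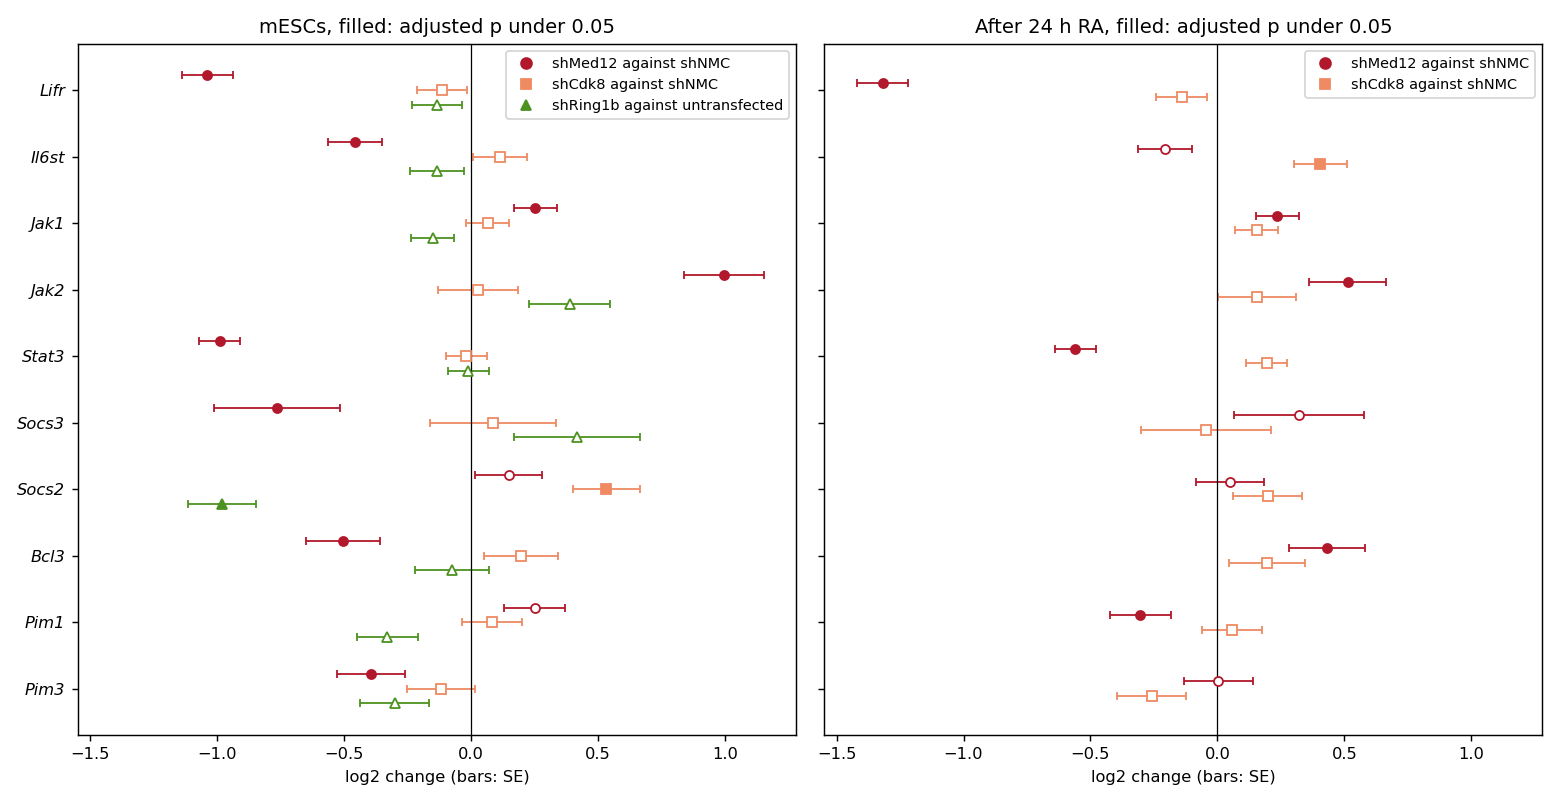
Log2 change of each gene with a hairpin, in mESCs (left: shMed12 and shCdk8 against shNMC, shRing1b against untransfected cells) and after 24 h RA (right: shMed12 and shCdk8 against shNMC), with bars of 1 SE, n = 3 libraries a group and filled symbols for an adjusted p under 0.05. Lifr and Stat3 fell with shMed12 in both states, Bcl3 was lower in mESCs and higher after RA, and shCdk8 changed 1 gene in each state.

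Whether the RA response of the pathway differed between shMed12 and shNMC cells was tested as an interaction, the RA change in shMed12 cells minus that in shNMC cells. It was called for 2 of the 10 genes, Bcl3 and Stat3, both higher (5.04% of all genes tested were called, 1.74% higher and 3.3% lower). Bcl3 fell by 0.70 in shMed12 cells and by 1.64 in shNMC cells on the log2 scale, a difference of 0.94 (SE 0.21, edgeR adjusted p = 0.00911). That call held in all 12 fits that leave out 1 library (0.76 to 1.10, adjusted p up to 0.0496). Stat3 fell by 0.78 in shMed12 cells and by 1.21 in shNMC cells, a difference of 0.43 (SE 0.11, edgeR adjusted p = 0.0297). The Stat3 call held only without RA shMed12 library 1 or mESC shMed12 library 3 and was lost in the other 10 of the 12 fits (0.37 to 0.47, edgeR adjusted p up to 0.116), and it was lost with no filter on low counts (0.40, edgeR adjusted p = 0.0646). Socs3 had a difference of 1.09 (SE 0.36, edgeR adjusted p = 0.0868) and Pim1 of -0.55 (SE 0.17, edgeR adjusted p = 0.0602). Neither was called in the edgeR fit of all 24 libraries, but the calls of both depended on the fit. With DESeq2 both were called (adjusted p = 0.041 for Socs3 and 0.0296 for Pim1). Both were also called in edgeR when only the groups compared were fitted (adjusted p = 0.00602 for Socs3 and 0.00222 for Pim1) or only the 18 shMed12, shCdk8 and shNMC libraries (0.00216 for Socs3 and 0.00267 for Pim1). Pim1 was called as well with a filter of at least 1 CPM in 3 libraries (edgeR adjusted p = 0.0429) and without RA shMed12 library 3 (-0.64, edgeR adjusted p = 0.0463). The 95% intervals of the other 6 genes lay within -0.94 and 0.80, and of these Jak2 was called when only the groups compared were fitted (-0.52, edgeR adjusted p = 0.0499). For shCdk8 the interaction was called for 0 of the 10 genes with edgeR (0.0369% of all genes tested were called, 0.0307% higher and 0.00614% lower), for 0 at an unadjusted p under 0.05 and for 0 with DESeq2. All of these differences share the shNMC libraries with the comparisons above.

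With shCdk8, 1 of the 10 genes was called against shNMC in mESCs (3.66% of all genes tested were called, 2.24% higher and 1.42% lower), and the median log2 change was 0.07 over the 10 genes and 0.00 over all genes. Socs2 had 135, 115 and 102 CPM with shCdk8, against 82.5, 93.4 and 67.4 CPM with shNMC (log2 0.53, SE 0.13, edgeR adjusted p = 0.0263). All shCdk8 libraries lay above all shNMC libraries, yet the call was lost without shCdk8 library 1 or 2 or shNMC library 1 or 3 (adjusted p up to 0.124). For the other 9 genes the 95% intervals of the log2 change lay within -0.44 and 0.61, the widest for Socs3, and Stat3's was -0.19 to 0.15. The fibroblast and smooth-muscle markers, 1 of which was called higher, summed to 40.0 to 43.3 CPM with shCdk8 against 26.9 to 27.5 CPM with shNMC in mESCs, and the endoderm markers, 0 of which were called, to 447 to 479 CPM with shCdk8 against 335 to 403 CPM with shNMC. Their part was not tested. After RA, 1 of the 10 genes was called with shCdk8 (7.73% of all genes tested were called, 4.1% higher and 3.64% lower), with medians of 0.16 over the 10 genes and -0.00 over all genes. Il6st had 115, 129.6 and 138 CPM with shCdk8, against 84.1, 87.0 and 118 CPM with shNMC (log2 0.41, SE 0.11, edgeR adjusted p = 0.0204). The highest shNMC library passed the lowest shCdk8 library, and the call was lost without shCdk8 library 2 or 3 or shNMC library 1 or 2 (adjusted p up to 0.131) and when only the groups compared were fitted (0.41, edgeR adjusted p = 0.0605). Stat3 was called higher when only the 18 shMed12, shCdk8 and shNMC libraries were fitted (0.20, edgeR adjusted p = 0.0455). Of the 6 mESC markers 5 were lower with shCdk8 after RA, with sums of 864 to 1098 CPM against 1292 to 1596 CPM with shNMC. Of the 10 fibroblast and smooth-muscle markers 2 were higher, with sums of 81.8 to 84.5 CPM with shCdk8 against 56.6 to 58.0 CPM with shNMC, and of the 8 endoderm markers 0 were called, with sums of 366 to 443 CPM with shCdk8 against 277 to 296 CPM with shNMC. Their part was not tested.

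Between shMed12 and shCdk8 set directly against each other, 7 of the 10 genes differed in mESCs, 1 higher and 6 lower with shMed12 (35.8% of all genes tested were called, 18.4% higher and 17.4% lower). On the log2 scale Stat3 was lower by 0.97 (SE 0.08), Lifr by 0.92 (SE 0.10), Socs3 by 0.85 (SE 0.25) and Bcl3 by 0.70 (SE 0.15). Il6st was lower by 0.57 (SE 0.11) and Socs2 by 0.38 (SE 0.13), and Jak2 was higher by 0.97 (SE 0.16). Against shNMC, Socs2 was not called with shMed12 and was called higher with shCdk8. The Socs2 call was lost without shMed12 library 2 or 3 or shCdk8 library 1 or 2 (adjusted p up to 0.152), and the Socs3 call without shMed12 library 1 or 2 or shCdk8 library 3 (up to 0.0806). Without shCdk8 library 3, Jak1 was called as well (0.26, edgeR adjusted p = 0.0467), as it was with only the 18 shMed12, shCdk8 and shNMC libraries (0.17, edgeR adjusted p = 0.049), and Pim3 was called lower with only the groups compared (-0.26, edgeR adjusted p = 0.028). After RA, 4 of the 10 genes were lower with shMed12 than with shCdk8 and 0 higher (41.4% of all genes tested were called, 21.3% higher and 20.1% lower): Lifr (-1.18, SE 0.10), Stat3 (-0.76, SE 0.08), Il6st (-0.61, SE 0.11) and Pim1 (-0.36, SE 0.12). Against shNMC after RA, Il6st was not called with shMed12 and was called higher with shCdk8. The Pim1 call was lost without RA shMed12 library 1 or 2 or RA shCdk8 library 3 (adjusted p up to 0.0743), and without RA shCdk8 library 3 Pim3 was called higher (0.39, edgeR adjusted p = 0.0313). With only the groups compared Jak2 (0.35, edgeR adjusted p = 0.0128) and Socs3 (0.36, edgeR adjusted p = 0.00649) were called higher, and Jak2 also with only the 18 libraries (0.35, edgeR adjusted p = 0.0131). These comparisons use the same shMed12 libraries as those against shNMC, so their directions are not independent of them.

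With shRing1b, 1 of the 10 genes was called against untransfected mESCs of the same technical set (15.1% of all genes tested were called, 9.68% higher and 5.42% lower), and the median log2 change was -0.14 over the 10 genes and 0.02 over all genes. This comparison holds the hairpin and the stable transfection together, and their effects cannot be told apart in it. Socs2 had 46.7, 47.4 and 38.2 CPM with shRing1b, against 72.6, 98.9 and 89.8 CPM in untransfected cells (log2 -0.98, SE 0.14, edgeR adjusted p = 6.8e-05). All 3 libraries labelled shRing1b, replicate 3 included, lay below every untransfected library. Without shRing1b library 3 the change was -0.88 and without library 2 it was -1.04, both called. Against shNMC, from the other technical set, 2 of the 10 genes were called (20.2% of all genes tested were called, 12.9% higher and 7.36% lower). Socs2 fell by 0.88 on the log2 scale (SE 0.13, edgeR adjusted p = 0.000147). Pim1 had 95.6, 93.5 and 126 CPM with shRing1b, against 135, 137 and 149 CPM with shNMC (log2 -0.42, SE 0.12, edgeR adjusted p = 0.0162). Its call was lost without shRing1b library 1 or 2 or shNMC library 3 (adjusted p up to 0.0769), and without shRing1b library 3 the change was -0.57. When only the shRing1b and shNMC libraries were fitted, both calls were lost (edgeR adjusted p = 0.0642 for Socs2 and 0.196 for Pim1), and the number of all genes called was 8, against 3294 in the fit of all libraries. Against untransfected cells the Pim1 change was -0.33 and not called, but it was called without shRing1b library 3 (-0.48, edgeR adjusted p = 0.00514) or untransfected library 2 (-0.46, edgeR adjusted p = 0.0131), and with DESeq2 (adjusted p = 0.0494).

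Socs3 and Jak2 were uneven among the shRing1b libraries. Socs3 had 103, 119 and 244 CPM and Jak2 20.4, 17.9 and 30.0 CPM in shRing1b libraries 1, 2 and 3, so library 3 was the highest for both genes, and for Socs3 the highest of all 24 libraries. Neither gene was called against untransfected cells with all 3 libraries. Without library 3 the log2 change against untransfected cells was -0.07 for Socs3 and 0.14 for Jak2, and without library 2 it was 0.58 for Socs3 and 0.53 for Jak2, of which Jak2 was called (edgeR adjusted p = 0.029). Of the 8 endoderm markers 2 were called higher than in untransfected cells (sums of 262 to 3486 CPM with shRing1b against 427 to 657 CPM), and of the 10 trophectoderm markers 8 (107 to 159 CPM with shRing1b against 63.3 to 118 CPM). Of the 10 fibroblast and smooth-muscle markers 3 were higher, with sums of 55.4 to 119 CPM with shRing1b against 28.0 to 42.9 CPM in untransfected cells. Against shNMC, from the other technical set, all 8 endoderm, 8 trophectoderm and 6 fibroblast and smooth-muscle markers were called higher and 0 lower. There 12.9% of all genes tested were called higher and 7.36% lower. Their part was not tested. When only the shRing1b and untransfected libraries were fitted, the Socs2 change was -0.96 with an edgeR adjusted p of 0.141, and the number of all genes called was 0, against 2459 in the fit of all libraries. Between shNMC and untransfected mESCs, which belong to different technical sets, 0 of the 10 genes were called with edgeR (0.00614% of all genes tested were called, 0.00614% higher and 0% lower), 0 at an unadjusted p under 0.05 and 0 with DESeq2.

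Over the 8 groups the order of levels fell into 3 patterns for all genes but Socs2 and Pim1. Lifr, Stat3 and Il6st were highest in the mESC groups other than shMed12, whose ranges overlapped from 1 neighbour to the next, and lowest in RA shMed12 cells, and the highest group mean was 6.55, 3.42 and 2.37 times the lowest. For Socs3, Bcl3 and Pim3 the shMed12 mean was instead the highest of the RA groups, though its range overlapped the next group for Bcl3 and Pim3. Their spans were 10.6, 3.56 and 3.41 times. In both patterns the means of all mESC groups stood above those of all RA groups, with shMed12 the lowest of the mESC groups. The ranges of mESC shMed12 and the next RA group overlapped for Stat3 and Il6st, but not for Lifr, Socs3, Bcl3 or Pim3. Jak2 and Jak1 ran the other way, from RA shMed12 cells at the top to shRing1b or untransfected mESCs at the bottom, with spans of 2.96 and 1.56 times. Socs2 was lowest of the mESC groups in shRing1b, which did not overlap its neighbours in the order, and its RA groups overlapped each other (span 5.24 times). Pim1 was highest in RA shCdk8 and RA shNMC cells and lowest in shRing1b mESCs, with overlapping neighbours at every step but the one from RA shNMC to mESC shMed12 cells (span 2.04 times). Correlations of mean log2 CPM over these 8 groups, given as descriptions of points that share the same media and hairpins, were 0.979 between Lifr and Stat3, 0.987 between Socs3 and Bcl3, 0.976 between Socs3 and Pim3 and -0.974 between Stat3 and Jak2.

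Among 11102 genes of at least 5 CPM in a group mean, those most like Stat3 over the 8 group means were Serpinb6c (Pearson r 0.993), Napb (0.992) and Fbxo7 (0.992). Those most like Lifr were Tcl1 (0.996), which encodes a coactivator of the kinase Akt, Cog7 (0.991) and Pou4f2 (0.990). Those most like Socs3 were Mrpl28 (0.994), Ly6g6e (0.990) and Gpr160 (0.990). With 8 points that differ mainly by RA and shMed12, many genes reach such values.

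The other genes of the pathway, 44 in 5 lists of textbook membership, were all tested. Of 11 genes for related cytokines and their receptors, 3 were higher and 1 lower with shMed12 in mESCs (list median log2 0.55, against -0.01 over all genes). That is 4 of 11 called, where 40.5% of all genes tested were called, 20.6% higher and 19.9% lower. Lif itself had 14.6, 14.4 and 12.7 CPM with shMed12, against 5.25, 4.92 and 5.83 CPM with shNMC in mESCs (log2 1.38, SE 0.31), and after RA 17.1, 16.8 and 17.7 CPM with shMed12, against 7.10, 8.47 and 8.25 CPM with shNMC (log2 1.11). Lif was thus higher in every shMed12 library than in any shNMC library, and in both states Lifr was lower with shMed12. Bulk RNA does not show whether the same cells held both changes. Cntfr, the receptor chain for ciliary neurotrophic factor, and Ctf1, a cytokine that also binds Lifr, were higher too (1.34 and 0.86), and Osm, whose highest level in any library was 0.869 CPM, was lower (-1.06, a call lost without shMed12 library 2 or 3 or shNMC library 1 or 3). In RA medium 4 of the 11 genes rose in shNMC cells, Cntfr, Il6 (1.57), Clcf1 (1.41) and Il11ra1 (0.56), and Osm fell (-2.15), with a list median of 0.56, where 51.4% of all genes were called and the median was 0.02. Cntfr had 35.1, 34.1 and 30.0 CPM in RA shNMC cells, against 5.77, 6.98 and 6.29 CPM in shNMC mESCs (log2 2.38). With all 24 libraries fitted, it was also the 1 gene of this list called with shCdk8, in mESCs (1.03) and after RA (0.96). With only the 18 shMed12, shCdk8 and shNMC libraries, Il6ra (-1.01, edgeR adjusted p = 0.00044) and Il6 (-1.53, 0.0308) were called lower with shCdk8 after RA. In that fit Lif (0.57, edgeR adjusted p = 5.98e-05) and Il11 (0.58, 0.0208) also rose with RA in shNMC cells. Il11 (0.62), Il6ra (0.53) and Osmr (1.0) were called higher there with shMed12 in mESCs.

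Of 7 genes for other Jak kinases and STAT factors, 5 were lower and 0 higher with shMed12 in mESCs (median -0.40, against -0.01 over all genes, of which 40.5% were called and 19.9% were lower): Stat4 (-1.33), Stat5a (-0.81), Stat2 (-0.47), Stat6 (-0.40) and Tyk2 (-0.30). The calls of Stat2 and Tyk2 ended in 6 and 5 of the 6 fits without 1 library and that of Stat6 in 1 (shMed12 library 2). After RA, 1 of the 7 was higher and 1 lower with shMed12 (median -0.11), where 41.9% of all genes were called. The interaction of shMed12 and RA was called for 0 of the 7. With only the 18 shMed12, shCdk8 and shNMC libraries, where 2642 genes were called, it was called for Stat4 (0.57, edgeR adjusted p = 0.000816), Stat5a (0.53, 0.0116) and Stat6 (0.48, 0.00207). With RA in shNMC cells 2 rose, Stat5b (0.79) and Stat4 (0.33), and 2 fell, Jak3 (-1.42) and Stat6 (-0.61), with a median of -0.18, beside 51.4% of all genes called and a median of 0.02. Of 14 inhibitors and phosphatases 3 were higher with shMed12 in mESCs, Socs1 (0.78), Ptpn11 (0.47) and Socs6 (0.24), and 3 lower, Pias2 (-0.57), Ptpn6 (-0.38) and Pias3 (-0.31), with a median of -0.07, a share of called genes near the 40.5% over all genes. RA in shNMC cells raised Socs5 (0.77) and lowered Socs4 (-0.71), Pias2 (-0.44), Pias4 (-0.42) and Cish (-0.41) in this list (median -0.10), 5 of 14 where 51.4% of all genes were called. Of the 4 adaptors that link gp130 to other kinases, Shc1 (0.63) and Gab1 (0.28) were higher and Grb2 (-0.22) lower with shMed12 in mESCs, beside 40.5% of all genes. In RA shNMC cells Gab1 (-0.41) and Grb2 (-0.24) fell, beside 24.1% of all genes. The calls of Socs6, Pias3 and Gab1 with shMed12 each ended in 4 of 6 fits without 1 library, and that of Grb2 in all 6.

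Of 8 further LIF and Stat3 target genes, 6 fell with RA in shNMC cells and 0 rose (median -1.81, against 0.02 over all genes, of which 51.4% were called and 24.1% were lower): Myc (-2.63), Klf5 (-2.37), Klf4 (-1.98), Junb (-1.86), Tfcp2l1 (-1.75) and Gbx2 (-0.62). Among the RA calls in shNMC cells named for these lists, those of Gbx2 and Grb2 each ended in 5 of 6 fits without 1 library, that of Cish in 4 and those of Il6, Stat4 and Pias4 in 2 each. With shMed12 in mESCs they split, 3 higher and 3 lower (median -0.12), beside 20.6% of all genes higher and 19.9% lower. Klf4, a factor of the naive state, had 47.0, 52.1 and 53.5 CPM with shMed12, against 186, 174 and 187 CPM with shNMC (log2 -1.84), and Klf5 (-0.90) and Tfcp2l1 (-0.71) were lower as well. Pim2, a further Pim kinase gene, had 52.1, 54.7 and 42.1 CPM with shMed12, against 10.9, 13.6 and 11.5 CPM with shNMC (log2 2.05), and Junb (1.09) and Ier3 (1.41) were higher, though the Ier3 call was lost in all 6 fits without 1 library. The 3 Pim genes thus differed with shMed12 in mESCs: Pim2 was higher, Pim3 lower and Pim1 not called. After RA, Pim2 stood at 13, 14.6 and 13.8 CPM with shMed12, against 11.7, 13 and 9.40 CPM with shNMC (log2 0.28, not called), and Myc (1.68), Junb (2.36) and Ier3 (1.38) were higher with shMed12, Klf4 (-1.58) and Klf5 (-0.51) lower, 5 of 8 where 41.9% of all genes were called. After RA the Klf5 call ended in 2 of 6 fits without 1 library (adjusted p up to 0.0998) and the Ier3 call in all 6 (up to 0.109).

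**Figure D4:**
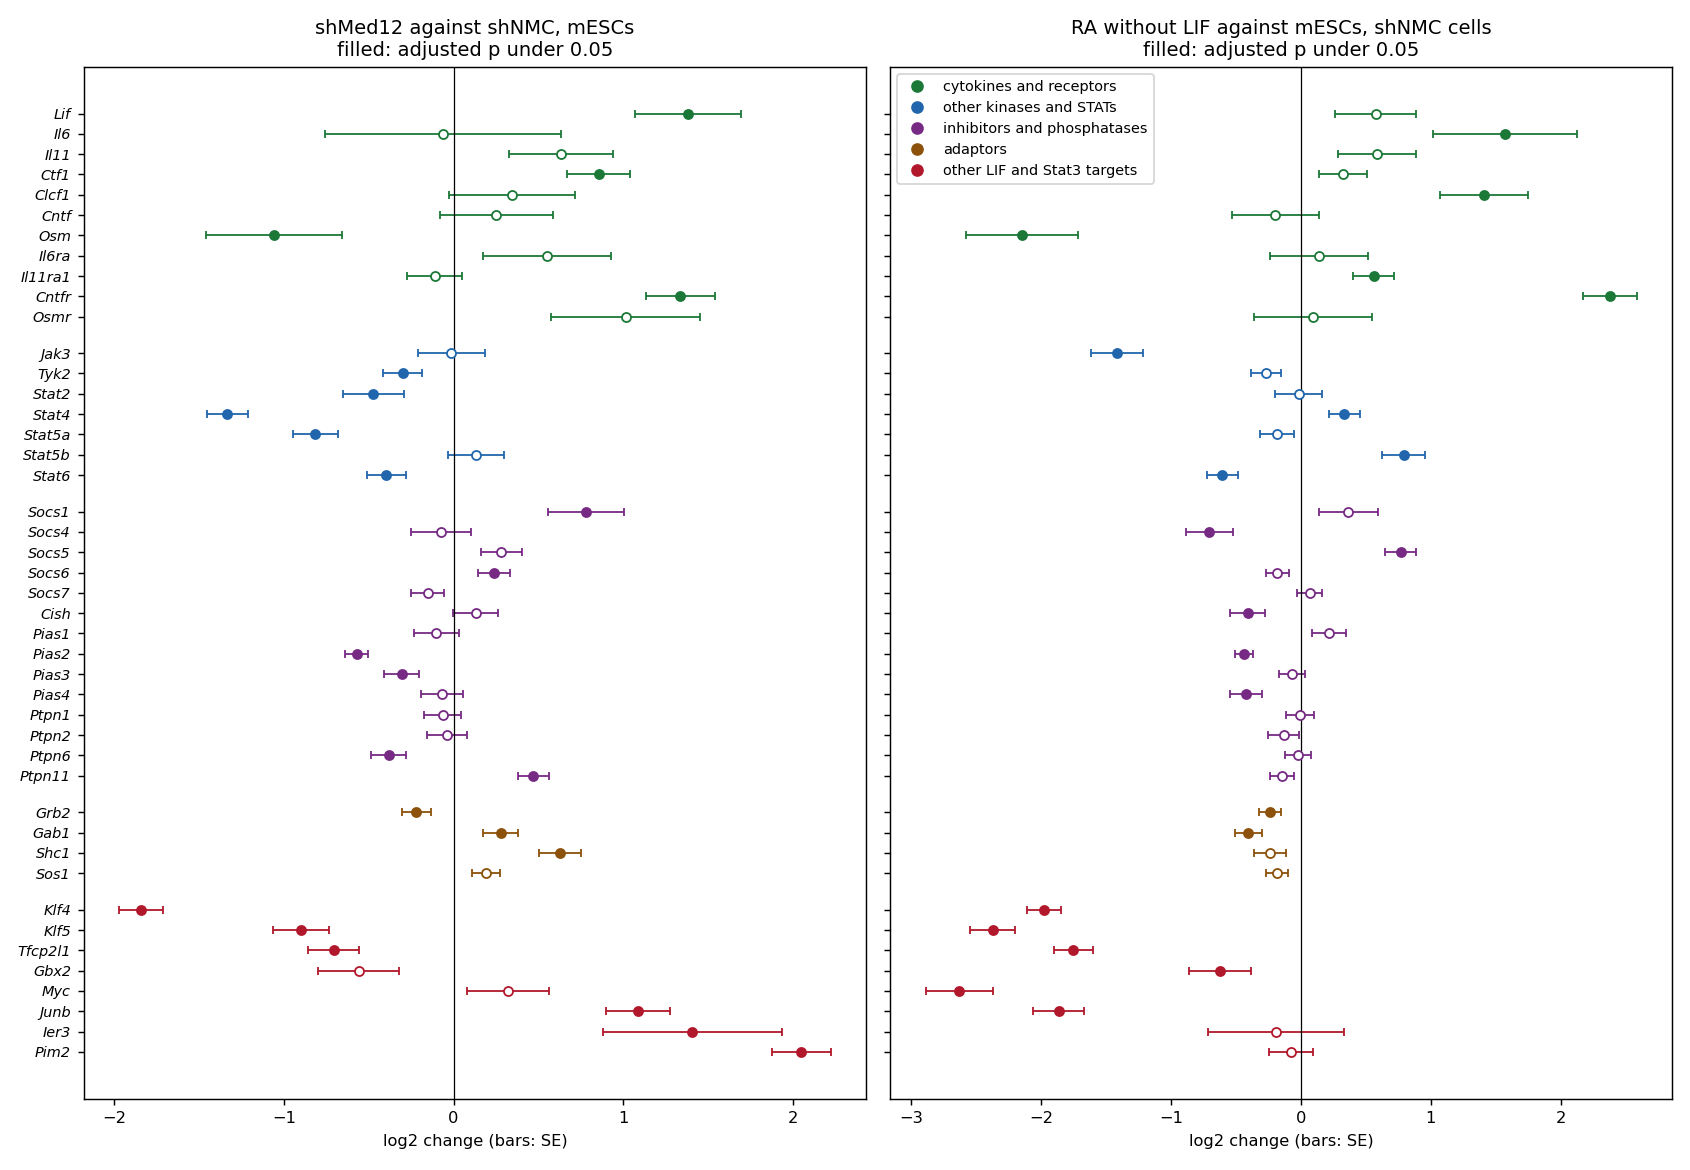
Log2 change of the 44 other pathway genes with shMed12 against shNMC in mESCs (left) and in 24 h RA medium without LIF against mESCs in shNMC cells (right), with bars of 1 SE, n = 3 libraries a group, filled symbols for an adjusted p under 0.05 and colours for the 5 lists. The other LIF and Stat3 targets lie at or below 0 with RA, and Klf4 and Pim2 mark the lower and upper ends with shMed12.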

How the data were processed

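Poly-A RNA of 24 mESC libraries, 3 in each of 8 groups, was measured as counts of reads per gene symbol, deposited by the authors as raw whole numbers without normalization. The submitters' processing notes name bcl2fastq 1.8.4, STAR 2.3.1z13, SAMtools 1.2, HTSeq 0.6.1p1, DESeq2 1.6.3 and the build mm9, without roles. Neither the gene annotation nor how strand was set in counting is given in the sources used here. The 5 entries that name no gene (35.9% to 58.7% of all entries) were left out of library sizes and tests.

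Counts were fitted with edgeR 4.0.16 (R 4.3.3): filterByExpr by group, TMM scaling, 1 quasi-likelihood fit of all 24 libraries with 16 residual degrees of freedom and no covariate, and Benjamini-Hochberg adjustment over 16280 genes, with a threshold of 0.05. Each standard error is the log2 change over the square root of F, and 95% intervals use the 16 residual degrees of freedom. The 14 comparisons are 12 between groups and 2 interactions. The script was tested on simulated data. The alternatives were other low-count filters, DESeq2 size factors in edgeR, DESeq2 1.42.0, fits of fewer libraries, the replicate number as a block, and each library left out in turn.

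Samples were grouped by their titles. The 10 genes and the lists were chosen with earlier results of these data known, and all 10 genes are named in each comparison. In the pathway lists the called genes are named where a list has 6 or fewer calls, otherwise the 2 largest called changes each way; after RA, and for shRing1b and the direct comparison of shMed12 and shCdk8, a selection was made after the values were seen. Same-numbered libraries deviated together (every correlation over 0.1) for shCdk8 between RA and mESCs, for shCdk8 and shNMC after RA, and for shMed12 and shCdk8 in mESCs. Replicates differed by more than sampling noise, so no library was counted as deposited more than once. The shZrf1 and untransfected RA samples that the design text mentions were not analysed here, and 1 gene of the pathway lists is not reported here.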

Additional observations from a re-analysis of the deposited data

Results flagged for a closer look

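The test of whether the RA response differed between shMed12 and shNMC cells picked out 7 genes of the pathway, 2 of the 10 and 5 of the 44 of the lists, where 5.04% of all genes tested were called. Each value is the log2 RA change in shMed12 cells minus that in shNMC cells, 3 libraries in each of 4 groups. Bcl3 differed by 0.94, with falls of 0.70 in shMed12 cells and 1.64 in shNMC cells. Stat3 differed by 0.43, with falls of 0.78 in shMed12 cells and 1.21 in shNMC cells. The other 5 genes come from the pathway lists. Junb differed by 1.28 (RA changes of -0.59 in shMed12 cells and -1.86 in shNMC cells) and Myc by 1.36 (-1.27 in shMed12 cells and -2.63 in shNMC cells). Pim2 differed by -1.77, falling by 1.85 with RA in shMed12 cells, where its mESC level was higher than with shNMC. Socs5 differed by -0.65 and Cntfr by -0.95. Bcl3, Junb and Pim2 held their calls in all 12 fits that leave out 1 library, while those of Cntfr, Stat3, Myc and Socs5 were lost in 11, 10, 7 and 6 of the 12 fits. The summed trophectoderm and fibroblast markers were higher and the summed mESC markers lower with shMed12 in both states (of the 6 mESC markers 5 were lower and Dppa3 higher), and their part in these differences was not tested.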

How the results depend on the processing

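Over all alternatives 1910 values of the 10 genes were recomputed: 1814 kept their side of the threshold, 68 lost the call, 28 gained one, and 0 called values reversed. Of the 1814, 66 were called in neither setting and changed sign. With DESeq2, the genes called numbered 1147 for shCdk8 in mESCs (596 with edgeR), 1250 for the interaction of shMed12 and RA (820) and 27 for that of shCdk8 and RA (6), and 4 of the 10 genes were called in the shMed12 interaction (2) and 2 for shRing1b against untransfected cells (1). With no filter on low counts 1 of the 10 genes, Bcl3, was called in the shMed12 interaction. With only the groups compared, the genes called numbered 2334 for shCdk8 in mESCs, 8 for shRing1b against shNMC (3294), 0 for shRing1b against untransfected cells (2459), 0 for shNMC against untransfected cells (1), 2744 for shCdk8 after RA (1259), 2237 for the shMed12 interaction and 38 for the shCdk8 interaction, and of the 10 genes 0, 0, 0 and 5 were called for shRing1b against shNMC and against untransfected cells, shCdk8 after RA and the shMed12 interaction. With only the 18 shMed12, shCdk8 and shNMC libraries the numbers were 2645 for shCdk8 in mESCs, 3760 for shCdk8 after RA, with 2 of the 10 genes, 2642 for the shMed12 interaction, with 4, and 67 for the shCdk8 interaction. The cause of these shifts was not tested.

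The replicate number was also fitted as a block. Same-numbered libraries deviated together (every correlation over 0.1) in 3 comparisons, where no call of the 10 genes changed with the block. Libraries that share neither hairpin nor medium also met this rule, as mESC shMed12 with RA shNMC (0.29, 0.16 and 0.37). Whether any libraries are paired is therefore not settled. In the other comparisons the correlations were not all over 0.1, as for shMed12 and shNMC after RA (0.32, 0.07 and 0.35). In these comparisons the replicate block raised the called among the 10 genes to 2 for shRing1b against untransfected cells (Pim1 -0.33, edgeR adjusted p = 0.0239) and to 3 against shNMC (Jak2 0.37, edgeR adjusted p = 0.0379), and changed no other call of the 10.

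Leaving out 1 library at a time, the genes called ranged from 7012 to 7831 for RA in shNMC cells (9 to 10 of the 10 genes), 4572 to 5322 in shMed12 cells (8 to 9) and 7232 to 7706 in shCdk8 cells (10). They ranged from 5232 to 6106 for shMed12 in mESCs (5 to 8 of the 10) and 5384 to 6011 after RA (2 to 5), and from 170 to 282 for shCdk8 in mESCs (0 to 1) and 482 to 922 after RA (0 to 1). Against shCdk8, shMed12 gave 4534 to 5178 in mESCs (5 to 7) and 5229 to 5945 after RA (3 to 4). For shRing1b they ranged from 2015 to 4678 against shNMC (1 to 2) and 1328 to 3900 against untransfected cells (1 to 2), for the shMed12 interaction from 489 to 830 (1 to 2) and for the shCdk8 interaction from 3 to 6 (0). All 10 genes had at least 409 counts in every library. What limits these results was not tested.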
